A study of Mus musculus with 6 samples.

Results

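The nuclear genes for the proteins of the mitochondrial ribosome were taken as every row of the gene count table whose symbol begins with Mrpl or Mrps, followed by a number and at most 1 further letter. This gave 78 genes of the 37043 in the table, of which 29 were Mrps genes (small subunit) and 49 were Mrpl genes (large subunit). The subunit was read from the symbol alone and not from the structure. Counts and sums by subunit are thus those of Mrps and Mrpl symbols. Symbols of pseudogenes, such as Mrpl23-ps1, were not matched, and mitoribosomal proteins with unrelated names (Dap3, Ptcd3, Chchd1, Aurkaip1 and Gadd45gip1) were followed as a separate group.

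The starting material was bone marrow of wild-type C57BL/6J mice, grown for 7 days in 0.3 ng/mL IL-3, the cytokine that drives basophil growth and activation. Basophils, rare granulocytes of allergy and of defence against parasites, were then enriched on beads with an antibody to CD49b. They received 10 ng/mL IL-3 or PBS for 6 hours before RNA extraction. There were 3 libraries per group, numbered 1 to 3, and every library of both groups came from cells already grown in IL-3, so the comparison is of added IL-3 with none added.

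The mitochondrial ribosome translates the few messenger RNAs that the mitochondrial genome encodes, all of them for subunits of the respiratory chain and the ATP synthase. Its 12S and 16S ribosomal RNAs are encoded in mitochondria, whereas all of its proteins are made from nuclear genes in the cytosol and imported. Some of these proteins descend from those of the bacterial ribosome and others are found in mitochondria alone.

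Genes of mitochondrial proteins are known for promoters with sites for NRF1, for the ETS factor GABP and for YY1, and these letters were searched for on both strands from 250 bases before to 50 bases after the annotated start (RefSeq, GRCm38.p6). Windows were found for 69 of the 78 genes, 75 windows in all, beside 32851 windows of all genes. The NRF1 letters GCGCANGCG stood in 21.3% of the members' windows and in 6.25% of all windows. For the ETS letters CCGGAAG the shares were 34.7% and 8.86%, and for the YY1 letters AAGATGGC they were 16% and 2.75%. By contrast, shares were near those of all windows for the E-box CACGTG, the letters that Myc binds (9.33% and 7.15%), for TTCNNNGAA, which the STAT factors downstream of the IL-3 receptor bind (8% and 8.3%), and for the NF-Y letters CCAAT (40% and 37.4%). Overlapping windows of Mrpl2 hold the same E-box, and counted by gene the E-box stood in 5 of 69 (7.25%). The STAT letters can overlap the NF-Y letters or an ETS site by a few bases, and a match is a description of the letters and not a site shown to be bound.

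**Figure D1:**
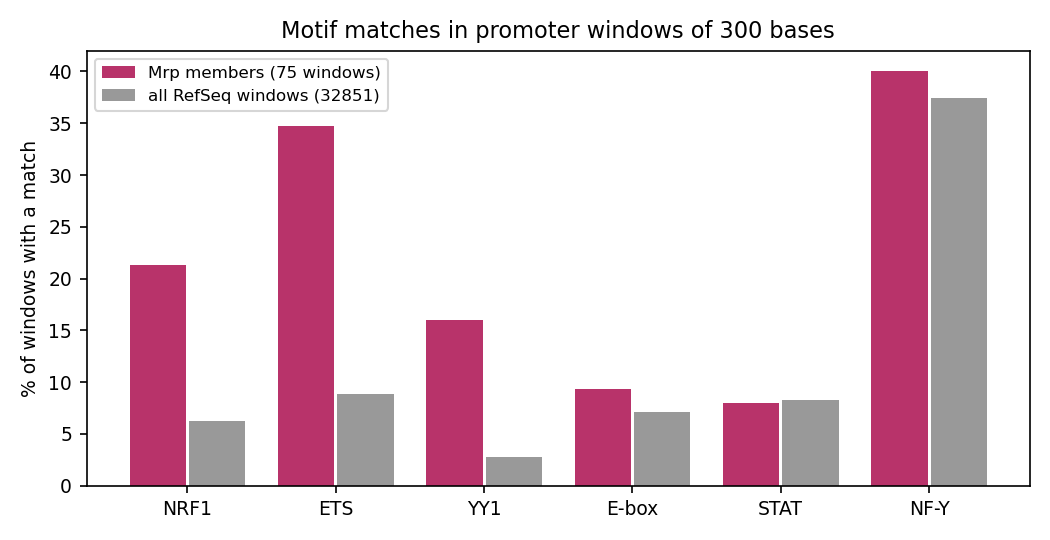
Share of promoter windows of 300 bases (y axis, %) that hold each motif (x axis), for the members (75 windows, magenta) and for all RefSeq windows (32851, grey). NRF1, ETS and YY1 letters were found in 21.3%, 34.7% and 16% of the members' windows, against 6.25%, 8.86% and 2.75% of all windows.

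The 150 bases before the start are shown for 4 members, each 5′ to 3′ on the gene's strand, to show what these windows look like in a gene with a pair of NRF1 matches, in genes with 1 ETS match and in 1 with an E-box. Mrpl45 (chr11:97315566-97315715, plus strand) encodes a protein at the polypeptide exit that holds the ribosome at the inner membrane. Mrps22 (chr9:98601680-98601829, minus strand), which encodes a small subunit protein found in mitochondria alone, was chosen for its ETS match after its values were seen. Mrpl34 (chr8:71464776-71464925, plus strand) and Mrpl20 (chr4:155802728-155802877, plus strand) encode large subunit proteins with bacterial homologues, and they are among the genes that were lower and higher with IL-3. Capitals mark the NRF1 letters in Mrpl45, the ETS letters in Mrps22 and Mrpl34 and the E-box in Mrpl20, and any other match is left in lower case.
Mrpl45: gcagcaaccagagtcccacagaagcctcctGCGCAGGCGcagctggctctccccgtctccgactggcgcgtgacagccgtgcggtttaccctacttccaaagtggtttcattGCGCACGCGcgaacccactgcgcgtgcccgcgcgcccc
Mrps22: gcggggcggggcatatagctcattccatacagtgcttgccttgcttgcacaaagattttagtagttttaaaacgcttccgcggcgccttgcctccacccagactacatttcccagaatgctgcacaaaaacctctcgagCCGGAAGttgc
Mrpl34: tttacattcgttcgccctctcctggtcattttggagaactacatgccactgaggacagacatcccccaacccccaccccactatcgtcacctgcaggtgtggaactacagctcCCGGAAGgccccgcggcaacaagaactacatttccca
Mrpl20: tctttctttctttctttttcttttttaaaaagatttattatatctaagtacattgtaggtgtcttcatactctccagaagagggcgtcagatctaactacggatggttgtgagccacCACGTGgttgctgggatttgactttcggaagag

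The 6 libraries held 10537540 to 13999287 counts, 13.4% to 16.5% of them on a nuclear rRNA row, and the lowest count of any member in a library was 43. Levels are given as CPM, counts scaled to a fixed library total and then by TMM, and a gene was called when edgeR's quasi-likelihood test gave a Benjamini-Hochberg adjusted p below 0.05 over the 16675 genes tested. The libraries of a group came from separate cultures, with no word on whether these came from separate mice, so p-values measure the spread between cultures. Summed basophil markers lay between 10840 and 11950 CPM with PBS and between 16010 and 16220 CPM with IL-3 (6 of 8 called higher and 1 lower). Summed mast cell markers lay between 840 and 945 CPM and between 1437 and 1571 CPM (4 of 6 higher). Monocyte and macrophage markers (Lyz2, Csf1r and 6 others) lay between 11450 and 12350 CPM with PBS and between 5984 and 6586 CPM with IL-3, with 6 of 8 called lower and 2 higher. Genes of proliferation lay between 717 and 786 CPM and between 338 and 402 CPM, with 8 of 8 called lower. Neutrophil markers lay between 75.2 and 111 CPM with PBS and between 127 and 182 CPM with IL-3 (2 of 5 tested higher and 1 lower), and eosinophil markers between 154 and 169 CPM and between 93.4 and 134 CPM (1 of 4 tested higher and 3 lower). Erythroid markers lay between 98.6 and 216 CPM and between 51.7 and 97.2 CPM (2 of 3 tested lower). No marker was at 0 in all libraries, and the part of these shifts in the values below was not tested. In bulk RNA, fewer cells of a type and less RNA per cell cannot be told apart.

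As a family the mitoribosomal protein genes hardly moved with IL-3. Their summed level was 2456, 2485 and 2415 CPM in the PBS libraries and 2431, 2476 and 2458 CPM in the IL-3 libraries, so that the groups overlapped and the means, 2452 ± 35.3 and 2455 ± 22.6 CPM (SD, n = 3), stood at a ratio of 1.001. Within it, 9 genes rose and 10 fell (11.5% and 12.8% of the family, where 18.0% and 20.2% of all genes tested did), and 59 were not called. The largest rise was that of Mrpl47, the only member past a 2-fold change, and the largest falls were those of Mrps35 and Mrps9.

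All 78 members passed the filter on low counts. The called members made up 24.4% of the family, where 38.2% of all genes tested were called (18.0% higher and 20.2% lower). Called changes of over 1.5-fold were seen in 1 member upward and 1 downward, 2.56% of the family, against 19.9% of all genes tested (7.56% higher and 12.3% lower). Past 2-fold the shares of all genes were 3.90% higher and 5.68% lower, and Mrpl47 was the 1 member there. The median log2 fold change (IL-3 minus PBS) was -0.02, beside -0.0033 over all genes, and 37 of 78 estimates were above 0. The quartiles of the family were -0.16 and 0.14 and its range was from -0.59 to 1.08, while the quartiles of all genes were -0.34 and 0.25. All 3 IL-3 libraries stood above all 3 PBS libraries for 13 members, and below them for 14, which is 34.6% of the family and compares with 48.2% of all genes (23.8% above and 24.4% below). An unadjusted edgeR p below 0.05 was found for 26 of the 78 members and for 7625 of the 16675 genes tested. Of the 19 calls, 10 were kept whichever library was left out. Without IL-3 2 the count of rises was 5, the lowest of these fits.

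The members were measured with less spread than the typical gene. They had a median level of 26.9 CPM, above the 12.8 CPM of all genes tested, and their median coefficient of variation among the 3 libraries of a group was 7.09% with PBS and 7.02% with IL-3 (10.6% and 9.85% over all genes). The 95% interval of the log2 fold change lay wholly within a 1.5-fold change in either direction for 65 of the 78 members, or 83.3%, against 41.4% of all genes tested. Of the 59 members that were not called, the interval was this narrow for 54, and it lay within a 2-fold change for all 59.

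The balance of calls depended on how the libraries were scaled. With library totals in place of TMM, the median of all genes moved to -0.17 and that of the family to -0.18, and calls went from 9 higher and 10 lower (47.4% higher) to 3 higher and 24 lower (11.1% higher). Under that scaling 40.3% of all genes tested were called, 10.2% higher and 30.2% lower. The distance of the family's median from that of all genes was -0.012 under both scalings. As shares of all counts without scaling, the family took 0.256% to 0.262% with PBS and 0.226% to 0.234% with IL-3, without overlap. Directions given below are under TMM.

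**Figure D2:**
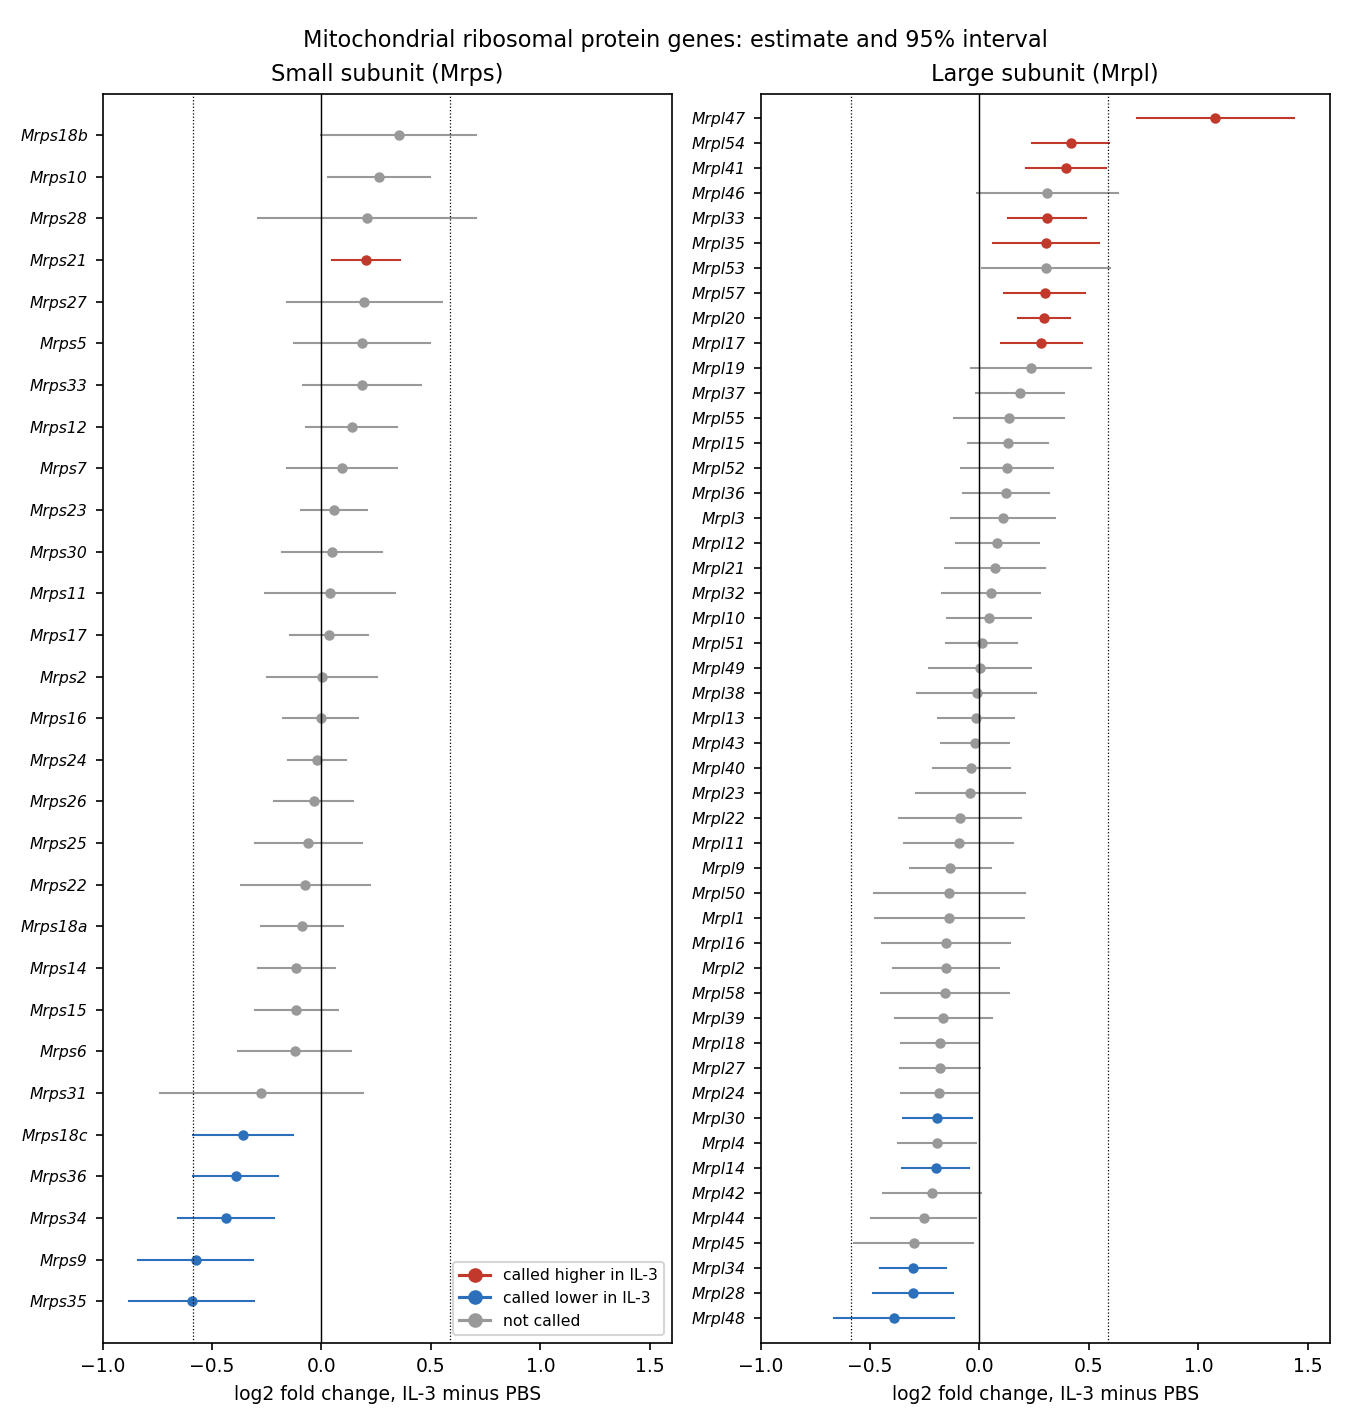
Log2 fold change (x axis, IL-3 minus PBS, 3 libraries per group) of the 29 small subunit genes (left) and the 49 large subunit genes (right), ordered by estimate. Points are edgeR estimates and lines their 95% intervals, red for the 9 called higher, blue for the 10 called lower and grey for the 59 not called, and dotted lines mark a 1.5-fold change, within which most intervals lie.

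Among the small subunit genes 5 fell and 1 rose, and among the large subunit genes 5 fell and 8 rose, with medians of -0.0037 and -0.02. As shares of the genes tested, 17.2% of the small and 10.2% of the large subunit genes fell and 3.45% and 16.3% rose, where 20.2% of all genes fell and 18.0% rose. With library totals these counts were 9 lower and 0 higher for the small subunit, and 15 lower and 3 higher for the large (30.2% lower and 10.2% higher over all genes). Summed, the small subunit genes stood at 841, 839 and 831 CPM with PBS and at 819, 820 and 809 CPM with IL-3. Every IL-3 library was thus below every PBS library, though by only 2.5% of the level (ratio 0.975). The large subunit genes stood at 1615, 1646 and 1584 CPM with PBS and at 1612, 1656 and 1649 CPM with IL-3, which overlapped. The ratio of large to small subunit messages was 1.93 ± 0.03 with PBS and 2.01 ± 0.04 with IL-3 (SD, n = 3). With 3 libraries against 3, an exact permutation test (two-sided) cannot give a p below 0.1, so it cannot decide whether these measures differ. The exact permutation test gave p = 0.1 for the small subunit sum and for the ratio, and p = 0.3 for the large subunit sum. No conclusion is drawn from these values. Without 1 library, 4 to 5 small subunit genes fell and 0 to 1 rose, and 3 to 4 large subunit genes fell and 5 to 8 rose. In those fits 16.7% to 18.0% of all genes fell and 14.4% to 16.1% rose. Of the 45 members with bacterial homologues 6 rose and 6 fell (13.3% each), and of 30 found in mitochondria alone 3 rose and 3 fell (10% each), but with library totals the calls were 1 higher and 15 lower, and 2 higher and 7 lower.

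Mrpl47 encodes a large subunit protein that sits at the exit of the polypeptide tunnel. It stood at 6.22, 4.21 and 5.02 CPM in the PBS libraries and at 11.6, 10.8 and 10.4 CPM in the IL-3 libraries, and its mean of 2.39 CPM per kilobase of transcript was among the lowest of the family. All IL-3 libraries were well above all PBS libraries, and the log2 fold change was 1.08 ± 0.17 (SE, edgeR adjusted p = 0.000100). It was the only member called against a null of a 1.5-fold change, past which 9.55% of all genes were called. Its call held under each of the 16 alternatives in which it was kept. The exons of Mrpl47 (chromosome 3, 32725397 to 32737605, minus strand, GRCm38, GENCODE M21) overlap those of 2 genes on the opposite strand. Neither of these rose, with Actl6a at 27.6 ± 0.94 and 28.1 ± 1.56 CPM, and Ndufb5, a complex I gene that starts 615 bases away, called lower (79.7 ± 4.69 to 67.5 ± 2.10 CPM).

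Smaller rises were seen in 7 other large subunit genes named by rank. Mrpl54, a mitochondria-specific protein near the flexible stalk, went from 41.2, 46.6 and 39.2 to 54.4, 54.6 and 60.3 CPM (log2 fold change 0.42 ± 0.08, edgeR adjusted p = 0.000852). Mrpl41, also specific to mitochondria, went from 28.6, 26.7 and 26.7 to 34.9, 37.4 and 35.4 CPM (0.39 ± 0.09, edgeR adjusted p = 0.00177). Of the 50-base words in its transcripts 11.3% are shared with Gm6434. Mrpl20, whose bacterial counterpart acts early in large subunit assembly, had the highest mean CPM of the family, at 87.5, 86.0 and 85.8 CPM with PBS and 104, 107 and 107 CPM with IL-3 (0.29 ± 0.06, edgeR adjusted p = 0.000653). In none of these 3 genes did the groups overlap. Mrpl33 (0.31), Mrpl35 (0.30), Mrpl57 (0.30) and Mrpl17 (0.28), all large subunit proteins, also rose. The libraries of Mrpl57 overlapped, at 53.5 to 63.9 CPM with PBS and 63.2 to 78.5 CPM with IL-3, and its call was lost without PBS 3 (0.24) or IL-3 2 (0.23). That of Mrpl17 was lost without PBS 1 (0.24), PBS 2 (0.23) or IL-3 2 (0.25), and that of Mrpl35 when any library but PBS 2 was left out (0.25 to 0.33). The call of Mrpl35 was also lost with DESeq2 (0.31), with no filter on low counts (0.32) and with the length and GC correction (0.27). Mrps21 was the 1 small subunit gene that rose, from 45.3 ± 1.91 to 52.1 ± 1.92 CPM (0.20, edgeR adjusted p = 0.0391), and being outside the rule for naming it was named after its value was seen. Its call was lost when any 1 library was left out (0.17 to 0.22), with DESeq2, with no filter and with the length and GC correction. With library totals, Mrpl47, Mrpl54 and Mrpl41 were still called higher and the other 6 were not.

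The steepest falls were in the small subunit. Mrps35, a mitochondria-specific protein, went from 19.7, 23.3 and 22.2 CPM with PBS to 11.7, 16.6 and 14.8 CPM with IL-3 (log2 fold change -0.59 ± 0.13, edgeR adjusted p = 0.00233). Mrps9, the counterpart of a bacterial protein whose tail reaches the decoding region, went from 16.0, 16.2 and 16.3 to 11.3, 11.4 and 10.0 CPM (-0.57 ± 0.12, edgeR adjusted p = 0.0016). In both genes every IL-3 library was below every PBS library, and the PBS libraries of Mrps9 were nearly equal.

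Mrps34, a mitochondria-specific protein, went from 39.0, 39.1 and 35.2 to 28.9, 23.7 and 31.0 CPM (-0.44 ± 0.10, edgeR adjusted p = 0.00312). Of the 50-base words in its transcripts it shares 34.2% with Nme3, a neighbour on the same strand that was also called lower (21.1 ± 2.24 to 13.4 ± 0.23 CPM), so that reads of the pair cannot be fully told apart. Its exons also overlap those of Mapk8ip3 on the opposite strand, which rose from 48.3 ± 5.47 to 69.7 ± 3.01 CPM (0.53, edgeR adjusted p = 8.78e-05). Mrps36, whose product is also described as a component of the 2-oxoglutarate dehydrogenase complex, went from 34.4, 30.6 and 33.4 to 24.2, 24.8 and 25.9 CPM (-0.39 ± 0.09, edgeR adjusted p = 0.00289), and 17.3% of its words are shared with other symbols, most often Mrps36-ps1. Mrps18c (-0.36), a mammalian version of a bacterial small subunit protein, fell from 26.5 ± 1.22 to 20.6 ± 2.26 CPM. Of its words 19.2% are shared, most often with the overlapping Gm43511, and its call was lost without PBS 2 (-0.33), IL-3 1 (-0.30) or IL-3 2 (-0.33).

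Another 5 falls were in the large subunit. Mrpl48, a protein of the central protuberance, went from 17.3, 19.1 and 21.7 to 13.3, 14.2 and 16.5 CPM (-0.39 ± 0.13, edgeR adjusted p = 0.0246), a call lost with DESeq2 (-0.39) and without PBS 3 (-0.30), IL-3 1 (-0.33) or IL-3 2 (-0.37). Its exons overlap those of Rab6a on the opposite strand, which was called higher. Mrpl34 went from 54.0, 55.4 and 53.7 to 43.0, 44.4 and 44.8 CPM (-0.30 ± 0.07, edgeR adjusted p = 0.00291) and Mrpl28 from 40.8 ± 0.94 to 33.1 ± 2.66 CPM (-0.30, edgeR adjusted p = 0.010). The groups did not overlap in these 3 genes, though the call of Mrpl28 was lost without IL-3 2 (-0.24). Mrpl14 (-0.20) and Mrpl30 (-0.19), both counterparts of bacterial proteins and both named after their values were seen, were the remaining members called lower, the latter at an edgeR adjusted p of 0.0499. The call of Mrpl14 held only without PBS 1 and that of Mrpl30 only without PBS 3, with estimates otherwise from -0.21 to -0.16 and from -0.22 to -0.15. Neither was called with DESeq2 or with no filter. The call of Mrpl30 was also lost with limma-voom and with DESeq2 size factors, and that of Mrpl14 with the length and GC correction.

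**Figure D3:**
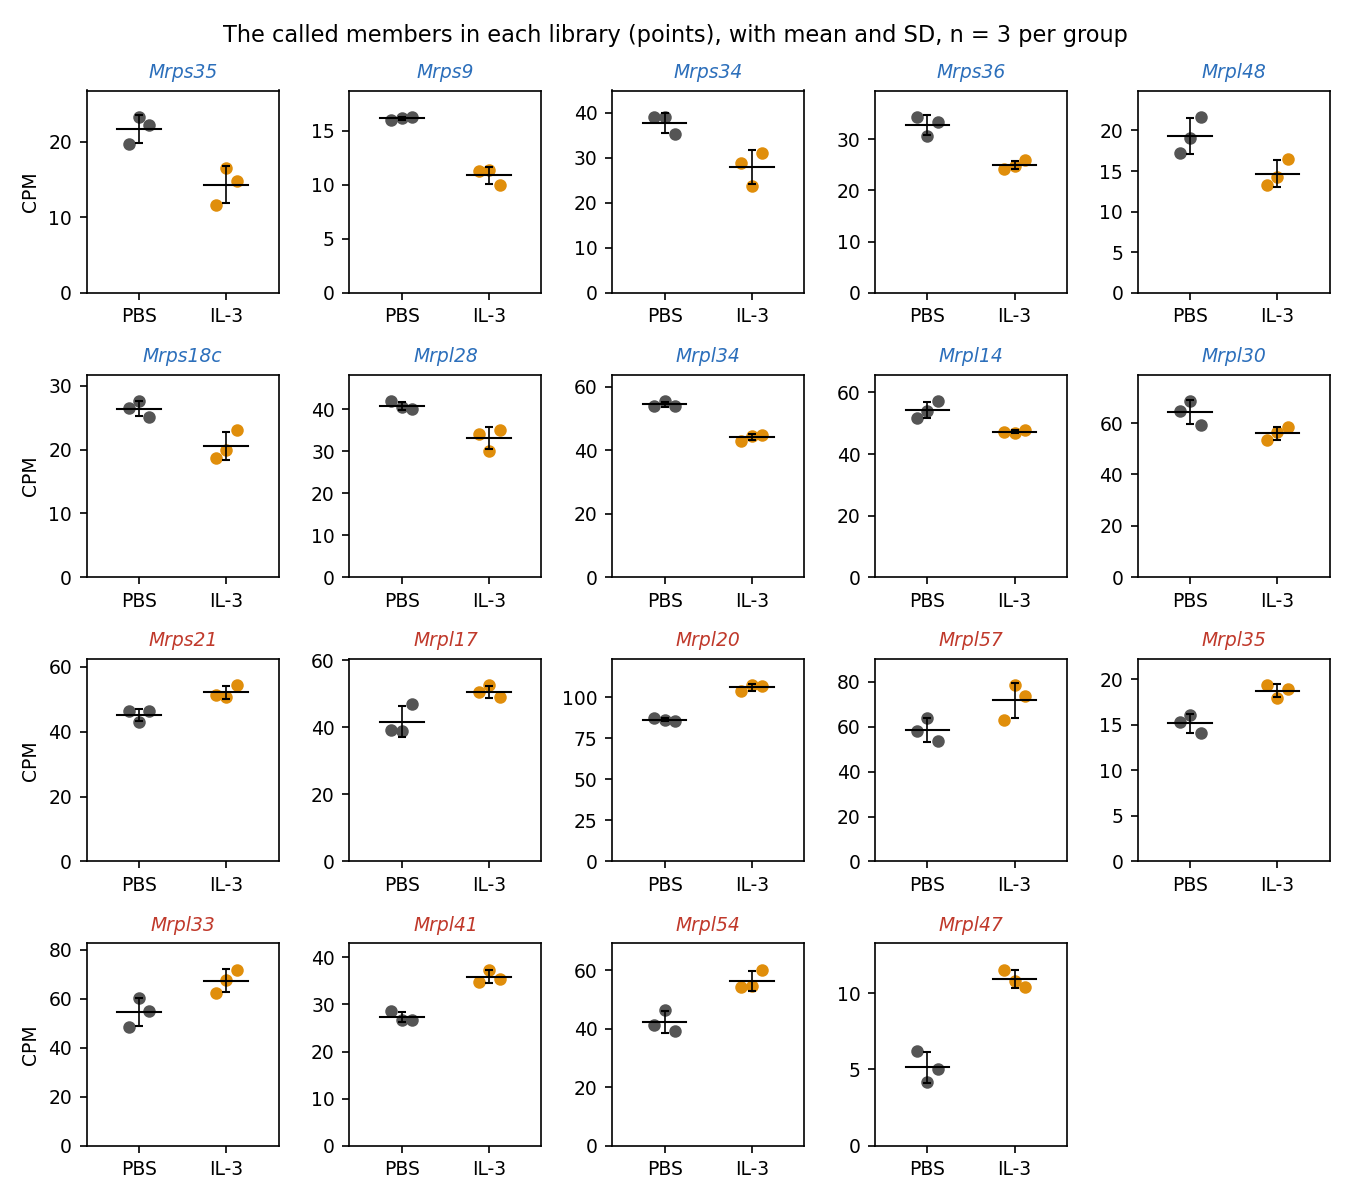
CPM (y axes, starting at 0) of the 19 called members in each of the 3 PBS (grey) and 3 IL-3 (orange) libraries, with the mean and SD in black, ordered from the largest fall to the largest rise. Titles in blue are called lower and titles in red called higher, and the groups overlap only in Mrpl57.

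Calls were also read by structural region of the large subunit, with 1 of 5 stalk genes, 2 of 6 exit tunnel genes and 1 of 6 central protuberance genes called (20%, 33.3% and 16.7%, against 38.2% of all genes tested). In the stalk that recruits translation factors, Mrpl54 rose, whereas Mrpl10, Mrpl11 and Mrpl12, the counterparts of the bacterial stalk proteins, were at 37.0 ± 3.11, 17.3 ± 1.5 and 37.7 ± 3.74 CPM with PBS and at 38.1 ± 2.56, 16.2 ± 0.76 and 40.0 ± 1.90 CPM with IL-3. Mrpl53 was not called (0.30), and 82% of its words are shared with Gm42688, so its level is uncertain. Around the exit tunnel Mrpl47 and Mrpl17 rose, while Mrpl22 (-0.09), Mrpl23 (-0.04), Mrpl24 (-0.18) and Mrpl45 (-0.30) were not called. In the central protuberance Mrpl48 fell, and Mrpl18 (-0.18), Mrpl27 (-0.18), Mrpl38 (-0.01), Mrpl40 (-0.04) and Mrpl46 (0.31) were not called. With library totals, 1 stalk gene rose and 0 fell, 1 exit tunnel gene rose and 2 fell, and 3 genes of the central protuberance fell, when 10.2% of all genes rose and 30.2% fell.

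The members of highest CPM included genes that were not called. Mrps24 stood at 94.0 ± 4.09 CPM with PBS and 92.6 ± 4.0 CPM with IL-3, Mrpl51 at 65.3 ± 4.28 and 65.7 ± 5.16 CPM, and Mrpl43 at 65.2 ± 3.81 and 64.4 ± 4.49 CPM. The smallest estimates were those of Mrpl49 (18.0 ± 1.10 and 18.0 ± 0.51 CPM), Mrps2 (15.4 ± 0.91 and 15.4 ± 0.77 CPM), Mrps16 (43.6 ± 1.31 and 43.4 ± 3.16 CPM) and Mrpl51. Per kilobase of the principal transcript, mean levels ran from 2.32 CPM for Mrps5, named after its value was seen, to 127 CPM for Mrpl33 and 126 CPM for Mrpl20, with a median of 18.3. That median was 400 for cytosolic ribosomal protein genes, 91.5 for nuclear genes of the respiratory chain and 5.35 for all genes tested.

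Many of the members share a start region with a neighbour. A protein-coding gene on the opposite strand started within 1 kb for 33 of the 78 (42.3%), against 2386 of 22028 protein-coding genes (10.8%). One such pair, Mrpl46 and Mrps11, starts 412 bases apart and joins both subunits. Of these 33 members, 1 rose with its neighbour, 1 fell with it and 3 were called in the direction opposite to it. Of all genes tested 18.0% rose and 20.2% fell, and whether these counts differ from those of unrelated pairs was not tested. For 16 members neither gene was called, and Mrpl46 and Mrps11, each the neighbour of the other, both count among these. Mrpl54 and Apba3, 26 bases apart, were both higher, and Mrps18c and Helq, 29 bases apart, both lower, but the calls of the neighbours were lost in 5 and 3 of the 6 fits without 1 library (0.20 to 0.29 for Apba3 and -0.76 to -0.55 for Helq in those fits). Mrpl41 rose while Pnpla7 fell from 127 ± 2.31 to 58.2 ± 3.10 CPM (log2 fold change -1.13), and Mrpl51 was not called beside Ncapd2, a condensin gene that fell from 74.8 ± 9.08 to 33.8 ± 5.51 CPM (-1.15). These neighbours were named after their values were seen. The labels and methods do not say whether reads were counted by strand, so where exons of opposite genes overlap, as they do for 28 members, their reads cannot be told apart.

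Of the 5 mitoribosomal proteins with other names, Ptcd3 rose from 14.8, 13.9 and 15.5 to 20.2, 19.1 and 16.8 CPM (0.34 ± 0.12, edgeR adjusted p = 0.0332), a call that was lost with DESeq2, library totals or the length and GC correction and without PBS 1, PBS 2, IL-3 1 or IL-3 2 (0.28 to 0.35). Dap3 (-0.10), Gadd45gip1 (-0.04), Aurkaip1 (0.06) and Chchd1 (0.07) were not called. With library totals 0 of the 5 were called higher and 1 lower, where 10.2% of all genes were higher and 30.2% lower.

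Both mitochondrial rRNAs and 12 of 13 messages encoded in mitochondria fell with IL-3. The 16S rRNA mt-Rnr2 stood at 12150, 12220 and 11740 CPM with PBS and at 5016, 5784 and 5477 CPM with IL-3 (log2 fold change -1.15 ± 0.04, edgeR adjusted p = 8.32e-12). The 12S rRNA mt-Rnr1 went from 5904, 5675 and 5564 to 3112, 3330 and 3509 CPM (-0.78 ± 0.04, edgeR adjusted p = 8.64e-10). Neither rRNA showed any overlap between the groups. Of the 13 messenger RNAs that the mitochondrial ribosome translates, a list added after the other lists, 12 fell by 0.22 to 0.39 on the log2 scale, mt-Nd3 was not called (0.11), and the median was -0.30. Their sum was 15900 ± 191 CPM with PBS and 12780 ± 36.1 CPM with IL-3. The libraries were made from poly(A) RNA, so for these transcripts the level also depends on their tails, and the part of that was not tested.

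**Figure D4:**
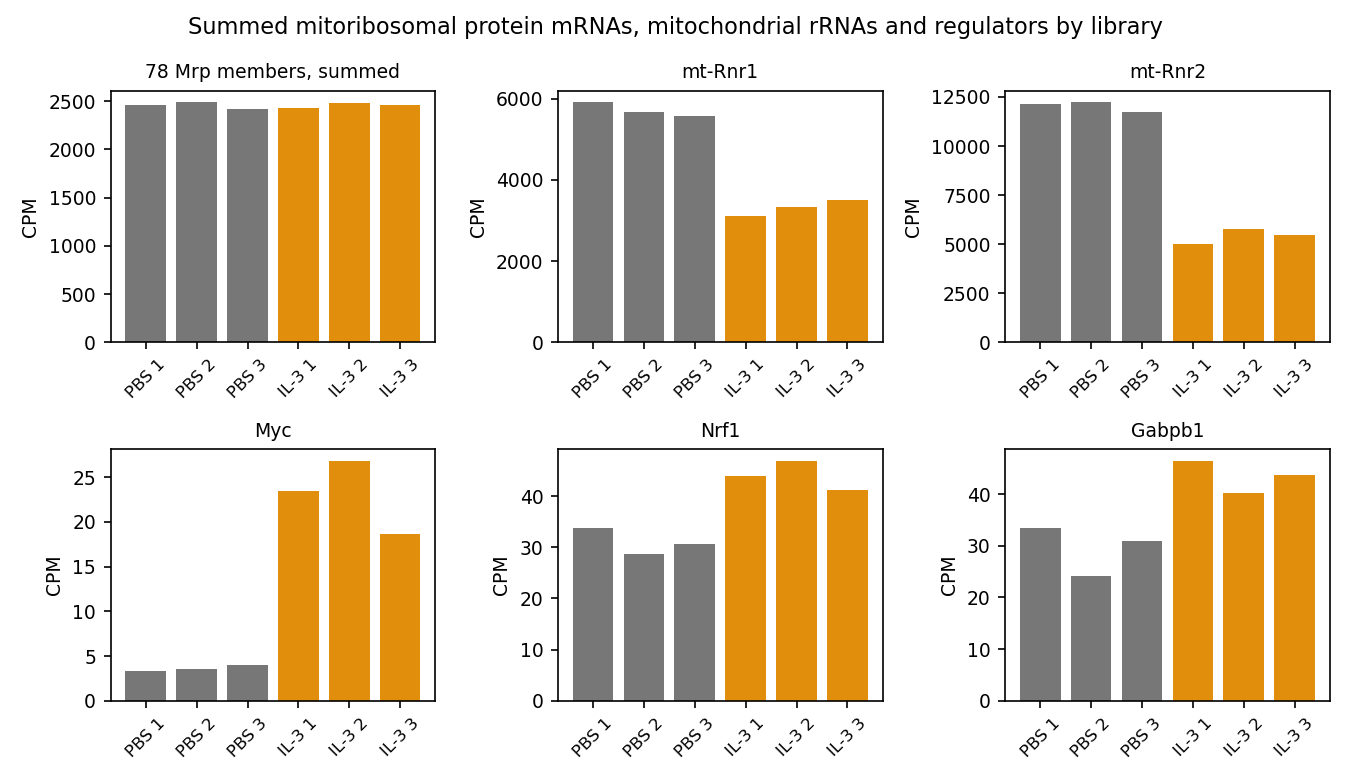
CPM (y axes, starting at 0) in each of the 3 PBS (grey) and 3 IL-3 (orange) libraries for the 78 members summed, the mitochondrial rRNAs mt-Rnr1 and mt-Rnr2, and the regulators Myc, Nrf1 and Gabpb1. The sum stays between 2415 and 2485 CPM in all 6 libraries, while both rRNAs are lower and the 3 regulators higher in every IL-3 library.

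Factors that bind or act on the promoters of genes for mitochondria rose in part. Myc, which drives genes of growth and ribosome production, went from 3.35, 3.51 and 3.96 to 23.5, 26.8 and 18.7 CPM (log2 fold change 2.67 ± 0.17, edgeR adjusted p = 3.50e-09). Nrf1 went from 33.9, 28.7 and 30.6 to 43.9, 46.9 and 41.2 CPM (0.50 ± 0.09, edgeR adjusted p = 0.000337). Gabpb1, which encodes a partner of the DNA-binding chain of GABP, went from 33.5, 24.1 and 30.8 to 46.4, 40.1 and 43.7 CPM (0.56 ± 0.11, edgeR adjusted p = 0.000776). The groups did not overlap in these genes. The coactivator gene Pprc1 also rose (0.78), while Gabpa, the DNA-binding chain (0.07), Yy1 (-0.04), Esrra (0.10) and Ppargc1b (-0.53, at 1.65 to 2.41 CPM) were not called. Ppargc1a, at 0.37 CPM with PBS and 0.47 CPM with IL-3, did not pass the filter. Of the 8 regulators tested 4 rose and 0 fell (50% and 0%, against 18.0% and 20.2% of all genes). With library totals 4 were called higher and 1 lower, where 10.2% of all genes were higher and 30.2% lower.

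The factors that work with the mitochondrial ribosome were read beside all genes tested, of which 18.0% rose and 20.2% fell. Of 27 assembly factors 1 rose, the helicase gene Ddx28 (0.52), and 3 fell, among them Rbfa, which acts on the small subunit (-0.37), and Ngrn (-0.41, lost without IL-3 1 at -0.34), with a median of -0.07. Of 15 translation factors 1 rose, the elongation factor gene Tsfm (0.33), and 1 fell. The call of Tsfm was lost with DESeq2, with library totals and without any library but PBS 2. The fall was that of Oxa1l, the insertase that receives the nascent chain at the inner membrane, from 47.5 ± 1.92 to 31.0 ± 2.76 CPM (-0.61 ± 0.09, edgeR adjusted p = 3.46e-05). Among 20 genes that charge mitochondrial transfer RNAs, Qrsl1 rose (1.05) and 3 fell, including Cars2 (-0.54) and Lars2, which charges the leucine transfer RNAs. Lars2 went from 724, 698 and 736 to 142, 135 and 135 CPM (-2.39 ± 0.05, edgeR adjusted p = 6.27e-15). Its mean over all libraries, 428 CPM, was the highest of its list, where the median was 7.71 CPM. Of its words 0.196% are shared with other symbols, but only exact matches were counted. Whether reads of similar sequences add to its level was not tested. None of 7 genes of mitochondrial transcription was called by edgeR, DESeq2 or limma-voom, and 1, Tfb2m, had an unadjusted p below 0.05. With library totals the calls were 1 higher and 5 lower for the assembly factors, 0 and 4 for the translation factors, 1 and 8 for the charging of transfer RNAs, and 0 and 2 for transcription. Under that scaling 10.2% of all genes tested were called higher and 30.2% lower.

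Other gene families for protein complexes gave a measure of scale. Of 80 cytosolic ribosomal protein genes tested 23 rose (28.8%, against 18.0% of all genes) and 5 fell (6.25%, against 20.2%), with a median of 0.07, but with library totals the calls were 2 higher and 25 lower, and without 1 library 12 to 30 rose and 2 to 4 fell. Of 76 nuclear genes for the respiratory chain 12 rose and 12 fell (15.8% each, and 7 to 13 and 9 to 11 genes without 1 library), with a median of 0.0064. With library totals 1 of these rose and 35 fell, when 10.2% of all genes rose and 30.2% fell. Their quartiles (-0.13 and 0.11) were close to those of the mitoribosomal protein genes. The differences between these lists were not tested.

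**Figure D5:**
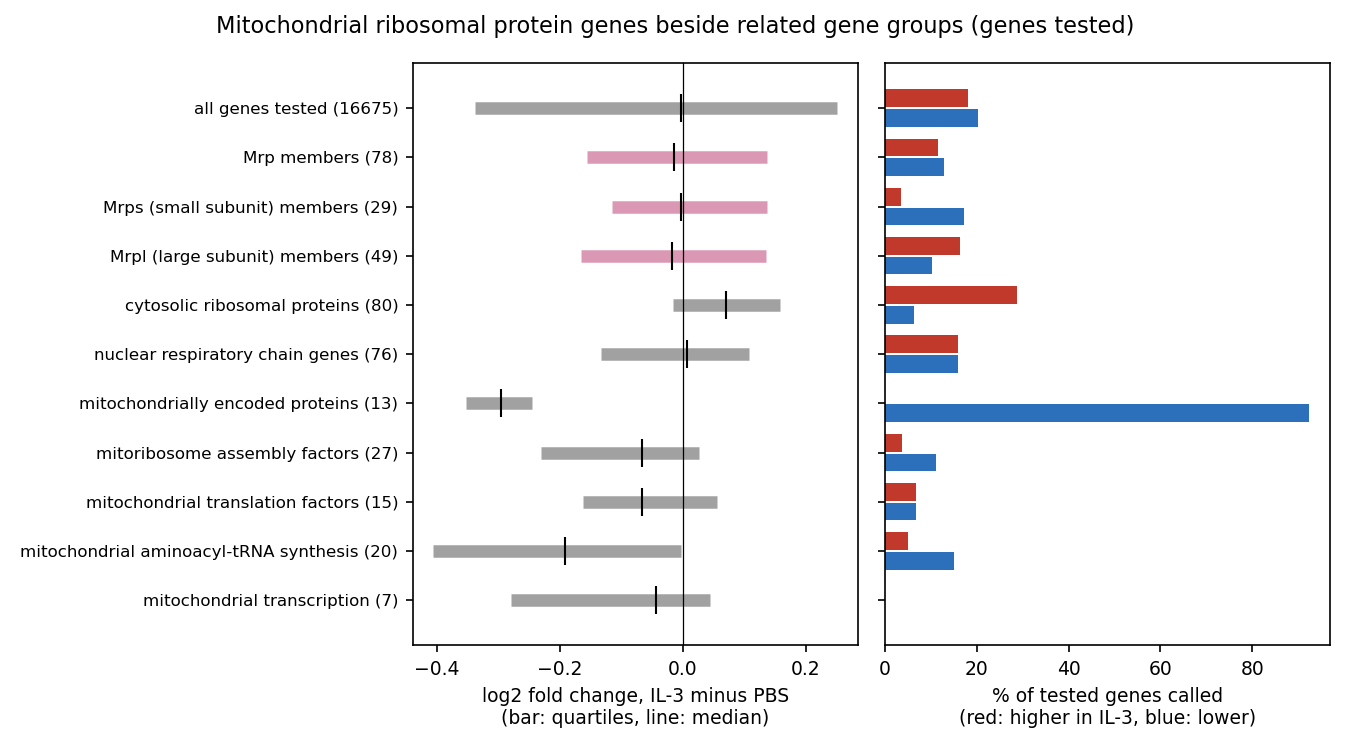
Left, log2 fold change (x axis, IL-3 minus PBS) of the mitoribosomal protein genes and related lists, with bars from the first to the third quartile and a line at the median. Right, the share of tested genes called higher (red) and lower (blue) in each list (x axis, %). The members' quartiles, -0.16 and 0.14, lie inside those of all genes, and 12 of 13 mitochondrially encoded messages are called lower.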

How the data were processed

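Gene counts for 3 PBS and 3 IL-3 libraries were taken from 1 deposited table of whole-number counts, raw and not normalized. By the study's methods, the authors trimmed poly(A)-derived cDNA reads with Cutadapt 3.4, mapped them with Bowtie2 to reference RNA of GRCm38 and counted them per gene. The submitters' processing notes list GRCm39 instead, so coordinates here come from GENCODE M21 (GRCm38) and were matched by symbol. Mapping to transcripts lets near-identical genes trade reads.

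Counts were filtered with filterByExpr, scaled by TMM and tested between groups with edgeR 4.0.16 (quasi-likelihood, two-sided) in R 4.3.3, with Benjamini-Hochberg adjustment over all genes tested and a threshold of 0.05. The code was tested on simulated data. Named genes were the 8 largest called rises and falls, the 5 highest members, the 4 smallest estimates, 3 structural regions and the related lists, of which up to 3 called genes were named. The members and lists were chosen with earlier results of these data known. Alternatives were DESeq2 1.42.0, limma-voom (limma 3.58.1), other scalings, filters and thresholds, a replicate block, a length and GC correction, leaving out members sharing 50-base words, and leaving out each library. Libraries of a group differed by more than sampling noise (chi-square per degree of freedom of at least 2.75).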

Additional observations from a re-analysis of the deposited data

How the results depend on the processing

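The counts of members called (9 higher and 10 lower) and their median log2 fold change (-0.02) were recomputed under each alternative. With DESeq2 size factors, another filter, no filter, DESeq2, limma-voom and the length and GC correction, 7 to 9 were higher and 7 to 10 lower. No filter gave 9 higher and 8 lower, when 20.7% of 32177 genes were called. DESeq2 gave 7 higher and 7 lower, when 16.3% of 32174 genes were called. In these fits, which take in genes of low counts, the family's share of calls was near that of all genes and not below it. With the others 38.1% to 38.8% of all genes were called. Library totals gave 3 higher and 24 lower (10.2% and 30.2% of all genes) with a median of -0.18. The test against a 1.5-fold change gave 1 higher and 0 lower, and an adjusted p below 0.01 gave 5 higher and 5 lower. Without members that share 50-base words, 33 remained, with 2 higher, 4 lower and a median of -0.060. Leaving out 1 library gave 5 to 9 higher, 7 to 9 lower and medians from -0.03 to -0.0052, and the lowest count of 5 higher came without IL-3 replicate 2. In those fits 14.4% to 16.1% of all genes were higher and 16.7% to 18.0% lower. The replicate numbers were shared between groups, but same-numbered libraries did not deviate together (correlations from -0.0087 to -0.022). With the replicate block, 9 were higher and 8 lower (17.0% and 19.5% of all genes), with a median of -0.015. The block lost the calls of Mrpl14, Mrpl30, Mrpl35 and Ptcd3 and added that of Mrps18b.

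No called member changed sign under any alternative. Among the genes named, those whose sign turned were not called. With library totals these were Mrpl10 (-0.12), Mrpl12 (-0.080), Mrpl49 (-0.16), Mrpl51 (-0.15), Mrps2 (-0.16), Mrps11 (-0.12), Chchd1 (-0.091), Aurkaip1 (-0.10), Gabpa (-0.091) and Esrra (-0.058). Mrps16 turned to 0.00806 with no filter and to 0.000825 with DESeq2. The length and GC correction turned Mrpl38 (0.10), Mrpl43 (0.026) and Mrpl51 (-0.020). Leaving out 1 library moved the sign of Mrpl10 (-0.022 to 0.096), Mrpl23 (-0.16 to 0.052), Mrpl38 (-0.098 to 0.056), Mrpl40 (-0.093 to 0.0096), Mrpl43 (-0.074 to 0.026), Mrpl49 (-0.035 to 0.050), Mrpl51 (-0.043 to 0.065), Mrps2 (-0.045 to 0.032), Mrps11 (-0.11 to 0.14), Mrps16 (-0.035 to 0.050), Mrps22 (-0.17 to 0.040), Mrps24 (-0.058 to 0.0084) and Gabpa (-0.022 to 0.12), given as ranges over the fits. The causes were not tested. With 3 libraries per group, single small changes are the least certain, and the lowest member count, 43, marks where counting error is largest.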
